A study of Homo sapiens and Mus musculus with 24 samples.

Results

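Human and mouse genes that carry the same symbol were compared for how their read counts changed after UV irradiation. The comparison covered 9507 gene pairs of 15805 symbol pairs, out of 58381 human and 53715 mouse genes counted. A pair was a protein-coding gene or lncRNA whose symbol matched between the species when letter case was ignored and was used by 1 gene in each, and whose nonirradiated samples averaged 0.5 CPM (counts scaled to a common library total) or more in all 4 cell types. Of these pairs, 9470 were mRNAs in both species, 25 were lncRNAs in both and 12 were annotated as coding in 1 species and noncoding in the other. A shared symbol stands in for orthology here, and no sequence alignment was made.

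The data were 24 RNA-seq libraries in 8 groups of 3. HepG2, a human hepatocellular carcinoma line, HEK293, a human embryonic kidney line, Neuro2a, a mouse neuroblastoma line, and HippCulture, primary hippocampal cultures from mouse embryos at E16.5, were each sequenced without irradiation (UV-) and after irradiation on ice (UV+, the assay named UPA-seq). The methods describe HEK293T in the culture section where the labels have HEK293, and AraC treatment of HippCulture to remove glia. The labels name no transgene or knockdown for any group. Each species is represented by 2 cell types, so a species difference and a difference between these particular cells cannot be told apart.

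UV light joins RNA covalently to proteins that touch it. In phenol extraction, RNA bound to protein moves to the interphase, and free RNA stays in the aqueous phase from which the libraries were made. The log2 ratio of UV+ to UV- compares the reads of a gene with those of the other genes in the same library. It says nothing of total RNA. From qPCR and northern blots, the paper also proposes that bonds made by UV hinder reverse transcription. The ratio does not separate this from loss to the interphase, and the part of each was not tested. Uracil crosslinks readily, and 3′ untranslated regions (UTRs) hold many of the binding sites of RNA-binding proteins. Protein sequences of orthologs are usually more conserved between human and mouse than UTRs are.

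Total counts were 36573473 to 53511592 in HepG2 libraries, 9444707 to 11188033 in those of HEK293, 7449341 to 9002243 for Neuro2a and 6910907 to 9163323 for HippCulture. Most marker genes followed the labels. ALB lay between 10800 and 15300 CPM in nonirradiated HepG2 and at no more than 0.106 CPM in HEK293, Hand2 between 114 and 118 CPM in Neuro2a, and Map2 between 1490 and 1780 CPM in HippCulture. Some defining markers were low, with PAX2 between 0.725 and 1.48 CPM in HEK293 and Th between 0.469 and 1.61 CPM in Neuro2a. All 4 astrocyte markers measured were present in HippCulture, from Aqp4 at 38.2 to 46.6 CPM to Slc1a3 at 414 to 492 CPM, as were 5 oligodendrocyte markers at 2.29 to 27.1 CPM, and their part in the HippCulture values was not tested. The microglial markers were mixed there, with Cx3cr1 and C1qa at or under 0.267 CPM, Aif1 at 0.218 to 0.61 CPM and Csf1r at 5.61 to 6.41 CPM. The gene pairs took 54.7% to 57.9% of counts in UV- HepG2 and 38.3% to 39.1% in UV+, with the same direction in the other cell types. TMM scaling set the factors between 1.098 and 1.592 in UV- libraries and between 0.619 and 0.904 in UV+ libraries, so each direction below is relative to the trimmed mean of the genes tested in that cell type.

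The UV effect was largely common to the 4 cell types. In HepG2, 3083 pairs (32.4%) fell and 4630 (48.7%) rose at an adjusted p under 0.05, against 40.7% and 38.1% of all 20117 genes tested there. In HEK293, 2628 pairs (27.6%) fell and 2987 (31.4%) rose, beside 26.4% and 24.2% of all genes. In Neuro2a the pairs that fell numbered 3270 (34.4%) and those that rose 3412 (35.9%), beside 33% and 28.9% of all genes. In HippCulture 2442 pairs (25.7%) fell and 3301 (34.7%) rose, with 25.9% and 26.1% of all genes. In each cell type a larger share of the pairs than of all genes rose, while the share that fell was below that of all genes in HepG2 and HippCulture and above it in HEK293 and Neuro2a. These splits depend on the scaling. With library sizes alone, 76.2% fell and 10.7% rose in HepG2, 57.4% and 9.86% for HEK293, 77.2% and 6.84% for Neuro2a, and 49.7% and 9.04% for HippCulture. A total of 2009 pairs (21.1%) rose in all 4 cell types and 1370 (14.4%) fell in all 4, and with library sizes alone these counts were 399 and 3960. Only 494 pairs (5.2%) passed the test in none.

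The size of the effect differed between cell types. Over the pairs, the log2 ratios had an SD of 1.12 for HepG2, 1.07 for Neuro2a, 0.90 for HEK293 and 0.63 for HippCulture. The middle 90% of pairs ran from -1.53 to 1.90 in HepG2 and from -0.88 to 1.16 in HippCulture. In the order of these SDs human and mouse cell types alternated. The median SE of a single pair's log2 ratio was between 0.10 (HepG2) and 0.17 (HEK293).

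Cell types of the same species resembled each other more than cell types of different species did. Spearman's rho over the 9507 pairs was 0.889 between HepG2 and HEK293 and 0.855 between Neuro2a and HippCulture. The between-species values were 0.768 for HEK293 and Neuro2a, 0.742 for HEK293 and HippCulture, 0.742 for HepG2 and Neuro2a and 0.705 for HepG2 and HippCulture. These coefficients are across genes, which are not independent replicates, and are given as a description. With ratios of single replicates, the 9 combinations ran from 0.822 to 0.881 for HepG2 and HEK293 and from 0.763 to 0.819 for Neuro2a and HippCulture. The highest single-replicate value between species was 0.738. Replicates of 1 cell type gave rho between 0.799 and 0.977. HepG2 was sequenced on another instrument than the other cell types, and the part of the instrument in these values was not tested. Among the 3 cell types that shared an instrument, rho was 0.855 within mouse and 0.768 and 0.742 between species.

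**Figure D1:**
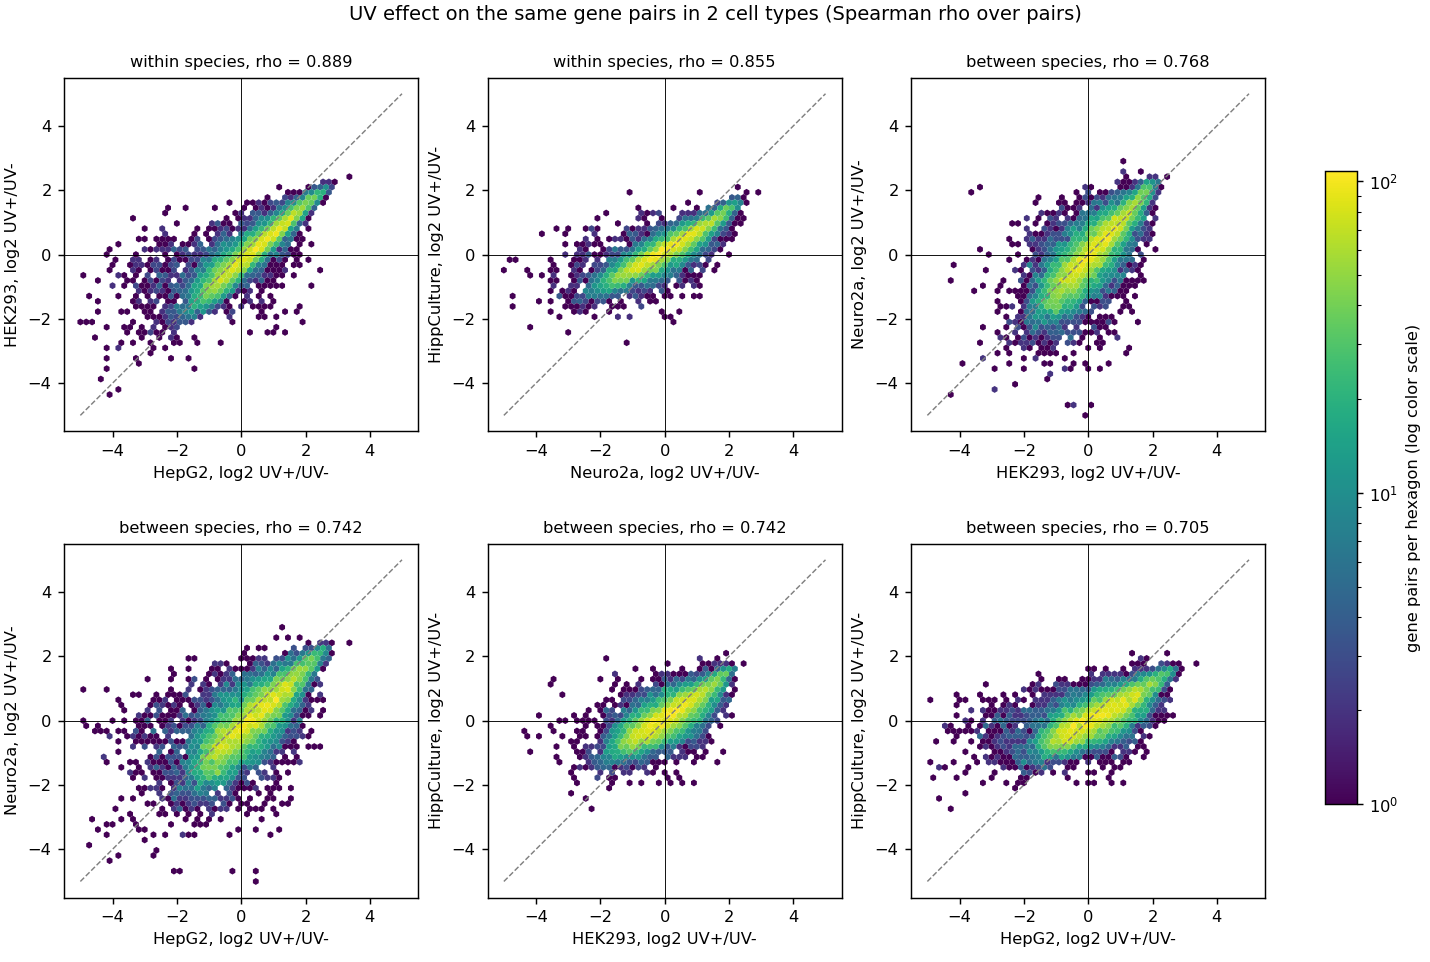
Each panel plots the log2 UV+/UV- ratio of the gene pairs in 1 cell type (x axis) against another (y axis), colored by the number of pairs per hexagon on a log scale, with the dashed line at equality; pairs beyond 5 on either axis are not drawn. The 2 panels within a species (rho 0.889 and 0.855) are narrower than the 4 panels between species (rho 0.705 to 0.768), and HippCulture spans the smallest range.

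Levels of the same genes were less alike than their UV effects. The level per kilobase of exon in nonirradiated samples had rho of 0.689 between HepG2 and HEK293 and of 0.615 between Neuro2a and HippCulture. Between species it ran from 0.353 for HepG2 and HippCulture to 0.603 for HEK293 and Neuro2a. HepG2 and HippCulture, the least alike in levels, had a rho of 0.705 for the UV effect.

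Splitting the variation of the log2 ratios into orthogonal parts, less the summed squared SEs, gave 81.3% to the part common to all 4 cell types. The species part took 10%, the difference between HepG2 and HEK293 3.89% and that between Neuro2a and HippCulture 4.85%. With each cell type scaled to the same SD, the parts were 85%, 9.44%, 2.78% and 2.79%. The share for species was above that of both within-species parts under either scale.

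The joint fit over all pairs counted the differences pair by pair. The UV effect differed between HepG2 and HEK293 in 1829 pairs (19.2%) and between Neuro2a and HippCulture in 2072 (21.8%). Between species the counts were 3928 (41.3%) for HepG2 against Neuro2a, 4224 (44.4%) for HepG2 against HippCulture, 2370 (24.9%) for HEK293 against Neuro2a and 2359 (24.8%) for HEK293 against HippCulture. Averaged over the 2 cell types of each species, 1450 pairs (15.3%) had a lower log2 ratio in human and 2626 (27.6%) a higher one. The median species difference was 0.13, human minus mouse, so part of the excess of higher calls is a shift of all pairs. When TMM factors were computed over the pairs alone, the median was 0.04, with 18.9% lower and 21.8% higher, and with library sizes alone it was -0.04, with 19.9% lower and 14.1% higher. The replicate number was also tried as a block, because same-numbered HEK293 samples deviated together. It raised the counts to 42.5% for HepG2 against HEK293, 34.5% for Neuro2a against HippCulture and 37.7% for HEK293 against HippCulture. With the block, HepG2 against HEK293 was thus above that between-species contrast, the reverse of the order without it. With library sizes alone, Neuro2a against HippCulture was 56.2% and HEK293 against Neuro2a 41.9%. HepG2 against HEK293 was 7.71% when each sample had to hold 10 counts of a pair, 9.95% with TMM over the pairs alone and 9.66% without HepG2 UV- replicate 1. The order of the contrasts by count therefore depends on the processing.

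**Figure D2:**
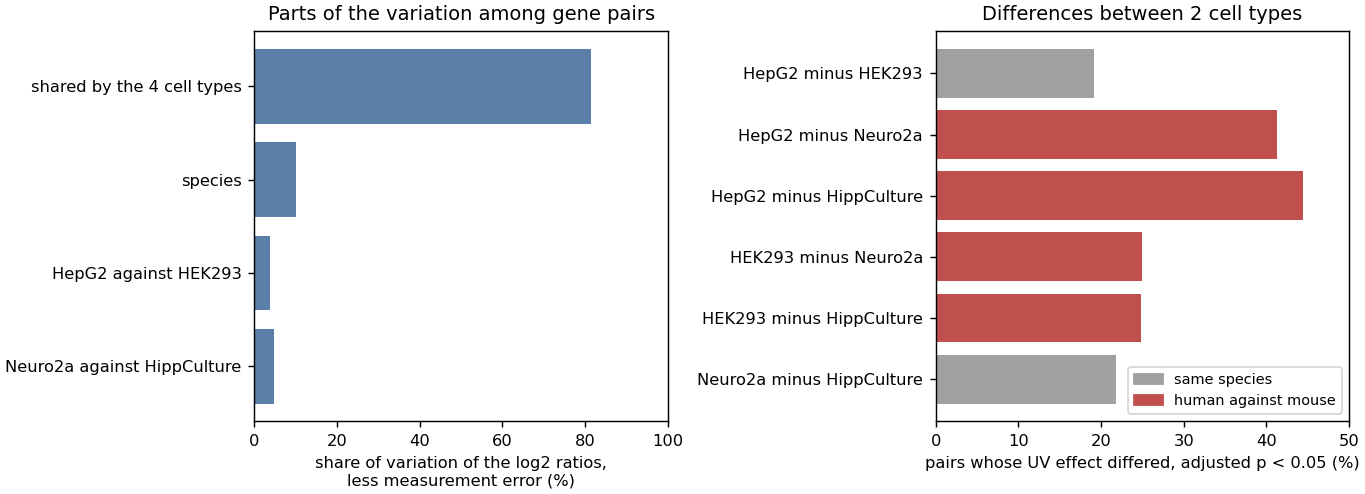
Left, bars give the percent of the variation of log2 UV+/UV- ratios among 9507 pairs that falls to each of 4 orthogonal parts, after measurement error is taken off. Right, bars give the percent of pairs whose UV effect differed between 2 cell types at an adjusted p under 0.05, in grey for cell types of the same species (19.2% and 21.8%) and in red for human against mouse (24.8% to 44.4%).

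A species difference can be estimated from samples that do not overlap. HepG2 minus Neuro2a and HEK293 minus HippCulture share no library, and over the pairs their rho was 0.448. Of the 1334 pairs called in both of these contrasts, 1122 (84.1%) had the same sign. The other arrangement, HepG2 minus HippCulture and HEK293 minus Neuro2a, gave 0.283, and 1102 of 1269 pairs (86.8%) had the same sign. For the within-species differences, HepG2 minus HEK293 and Neuro2a minus HippCulture, rho was 0.202 and 298 of 513 pairs (58.1%) had the same sign. The order of subtraction within a species is arbitrary, and reversing 1 of them would flip the sign of rho and of each agreement. The within-species values are therefore no baseline for the between-species ones. With equal SDs the 3 coefficients were 0.509, 0.484 and 0.028.

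Opposite calls were uncommon within a species. Of 5164 pairs called in both HepG2 and HEK293, 73 (1.41%) moved in opposite directions, and of 4882 called in both Neuro2a and HippCulture, 71 (1.45%) did. Between species the share ran from 4.51% for HEK293 and HippCulture to 10.1% for HepG2 and Neuro2a. In all, 41 pairs (0.431%) fell in both human cell types and rose in both mouse cell types, and 38 (0.4%) did the reverse. With the replicate block these counts were 55 and 85. The count of 38 was 21 without HEK293 UV- replicate 2 and 22 without HEK293 UV- replicate 3, and the count of 41 was 27 without HEK293 UV+ replicate 3.

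Among mRNAs and lncRNAs that fell in all 4 cell types, NEAT1, the scaffold of nuclear paraspeckles (chr11:65422774-65445540 in hg38 and chr19:5824708-5845478 in mm10), had the lowest mean log2 ratio. Its scaled CPM in HepG2 was 2660, 1040 and 1220 in UV- and 112, 77.9 and 83 in UV+ samples. In HEK293 it was 595, 515 and 563 against 63.8, 86.8 and 79.3. In Neuro2a it was 200, 245 and 310 against 19.7, 21.2 and 23. No UV+ sample reached a UV- sample in any cell type, and the first HepG2 UV- sample lay above the others. HippCulture had the lowest levels, with 9.97, 28.4 and 7.46 against 6.11, 3.42 and 3.87. The log2 ratios were -4.17 ± 0.367 (SE) for HepG2, -2.86 ± 0.161 for HEK293, -3.56 ± 0.161 for Neuro2a and -1.74 ± 0.394 for HippCulture, and the species difference of -0.86 ± 0.371 did not pass the test (adjusted p = 0.0645). Without HippCulture UV- replicate 2, the highest of its group, the HippCulture ratio was -0.91 and the species difference -1.27 passed (adjusted p = 0.00187), and with the replicate block it was -0.91 (adjusted p = 0.00305).

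MALAT1, an abundant RNA of nuclear speckles, lies next to NEAT1 in both genomes and also fell in all 4 cell types. HippCulture held the most, with 5020, 4960 and 4300 scaled CPM in UV- and 2610, 1710 and 1920 in UV+ samples. In HepG2 it was at 1230, 421 and 502 against 130, 113 and 112. The log2 ratios were -2.60 ± 0.367 for HepG2, -2.02 ± 0.336 for HEK293, -2.92 ± 0.155 for Neuro2a and -1.20 ± 0.127 for HippCulture. Without the first HepG2 UV- sample, the HepG2 value was -2.02. TUG1, a nuclear RNA annotated as noncoding in mouse only, had ratios from -1.78 in Neuro2a to -0.85 in HippCulture and a species difference of -0.10 ± 0.212 (adjusted p = 0.726). NEAT1, MALAT1 and TUG1 are among the lncRNAs that the study takes as known functional ones, and none of these 3 passed the species test.

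Other pairs with a deep common decrease included a noncoding RNA and mRNAs of regulators. KCNQ1OT1, the imprinted RNA antisense to KCNQ1, had log2 ratios of -3.77, -2.88, -3.09 and -1.47, in the order HepG2, HEK293, Neuro2a, HippCulture. CPEB4, a protein that binds U-rich elements of 3′ UTRs, had its lowest ratio in Neuro2a, where it went from 56.8, 60 and 66.4 scaled CPM to 5.4, 5.13 and 5.33. ONECUT2, a homeodomain transcription factor, ranged from -2.74 in Neuro2a to -1.74 in HippCulture and showed no species difference past the test (0.16 ± 0.237, adjusted p = 0.621). TCF4, a basic helix-loop-helix factor, fell by 3.09 in HepG2 on 8 UV+ reads in all, and its species difference of -0.89 was lost without HepG2 UV+ replicate 1 (-0.68). XIST and its antisense partner TSIX also met the rule, and their values are not described.

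Ribosomal protein mRNAs led the pairs that rose everywhere. RPS15, of the small subunit (chr19:1438358-1440494 in hg38 and chr10:80292453-80294114 in mm10), was at 124, 120 and 122 scaled CPM in UV- and 748, 729 and 689 in UV+ HepG2. HEK293 had 305, 353 and 315 against 1410, 1250 and 1250. The mouse samples moved likewise, with 199, 228 and 209 against 945, 1090 and 1200 in Neuro2a and 78, 92.5 and 82 against 252, 301 and 277 in HippCulture. No groups overlapped, and the log2 ratios of 2.56 ± 0.0767, 2.01 ± 0.135, 2.34 ± 0.113 and 1.72 ± 0.091 were all past the test. RPS16 reached 2.53, 1.85, 2.22 and 2.09 with a species difference of 0.03 ± 0.206 (adjusted p = 0.915). RPL35, RPL36, RPS27, RPLP1 and the mitochondrial MRPL54 were the other ribosomal members among the highest means. WDR38 had the highest mean ratio, 3.34 in HepG2, but in both species it shares exon bases with RPL35, and the authors' counting assigned such reads to both genes.

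All 77 cytosolic ribosomal protein pairs rose in each of the 4 cell types, with median log2 ratios of 2.49, 1.87, 2.07 and 1.46 in the same order of cell types, beside medians of 0.22, 0.06, -0.03 and 0.09 over all pairs. Of all pairs, 48.7%, 31.4%, 35.9% and 34.7% rose, in the same order. In the ribosomal list 59 pairs were higher in human and none lower, beside 27.6% and 15.3% of all pairs. The species difference of this list was positive in the median (0.40, beside 0.13 over all pairs). It ranged from -0.22 ± 0.161 for RPL28 to 0.85 ± 0.107 for RPL27. With library sizes alone the medians in the cell types stayed above 0, at 0.87 to 1.18. Mitochondrial ribosomal proteins rose in 76, 67, 76 and 69 of 78 pairs, with medians of 1.71, 1.38, 1.56 and 1.08. Nuclear-encoded respiratory chain subunits rose in 60, 59, 61 and 61 of 62, and proteasome subunits in 32, 30, 32 and 31 of 33. Sm and LSm proteins, the core of spliceosomal snRNPs, rose in all 15 pairs in both human cell types, in 14 in Neuro2a and in 12 in HippCulture, though with library sizes alone their Neuro2a median was -0.02.

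Some members of these lists differed between the species. MRPL42, a mitochondrial ribosomal protein, was at 47, 60.7 and 56.9 scaled CPM in UV- and 44.5, 43.4 and 39.3 in UV+ HepG2, and at 174, 172 and 159 against 88.4, 84.3 and 61.5 in HEK293. In Neuro2a it went from 30.5, 24.6 and 27.5 to 74, 57.3 and 53.3, and in HippCulture from 15.9, 15.5 and 18.3 to 31.5, 25.2 and 28.8. The human samples fell and the mouse samples rose, without overlap in any cell type, with log2 ratios of -0.37, -1.11, 1.16 and 0.79 and a species difference of -1.72 ± 0.142 (adjusted p = 2.08e-09). MRPS2, of the same organelle's small subunit, differed in the other direction by 1.45 ± 0.154. NDUFA5, a complex I subunit, differed by -1.30 ± 0.108 and PSMD12, of the proteasome's regulatory particle, by -1.09 ± 0.225.

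mRNAs of the mitochondrial genome were counted unevenly in the species. Of 12 symbol pairs, 6 were members, and in the other 6 no mouse library held more than 11 counts while every human library held at least 120. Of the 6 members, 5 rose in HepG2, 1 in HEK293 and 6 in each mouse cell type, beside the shares of all pairs given above. MT-ND1, a complex I subunit, was at 238, 100 and 111 scaled CPM in UV- and 404, 414 and 443 in UV+ HepG2, and at 170, 183 and 171 against 776, 691 and 698 in Neuro2a. HEK293 overlapped, with 21.9, 108 and 40.7 in UV- and 43.3, 66.7 and 63.2 in UV+ samples, and the UV- samples differed more among themselves than from the UV+ samples. Its species difference was -1.12 ± 0.345 (adjusted p = 0.0111). MT-CO1 rose by 1.92, 1.99, 1.98 and 1.47 and did not differ past the test between species (0.23 ± 0.15, adjusted p = 0.22).

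**Figure D3:**
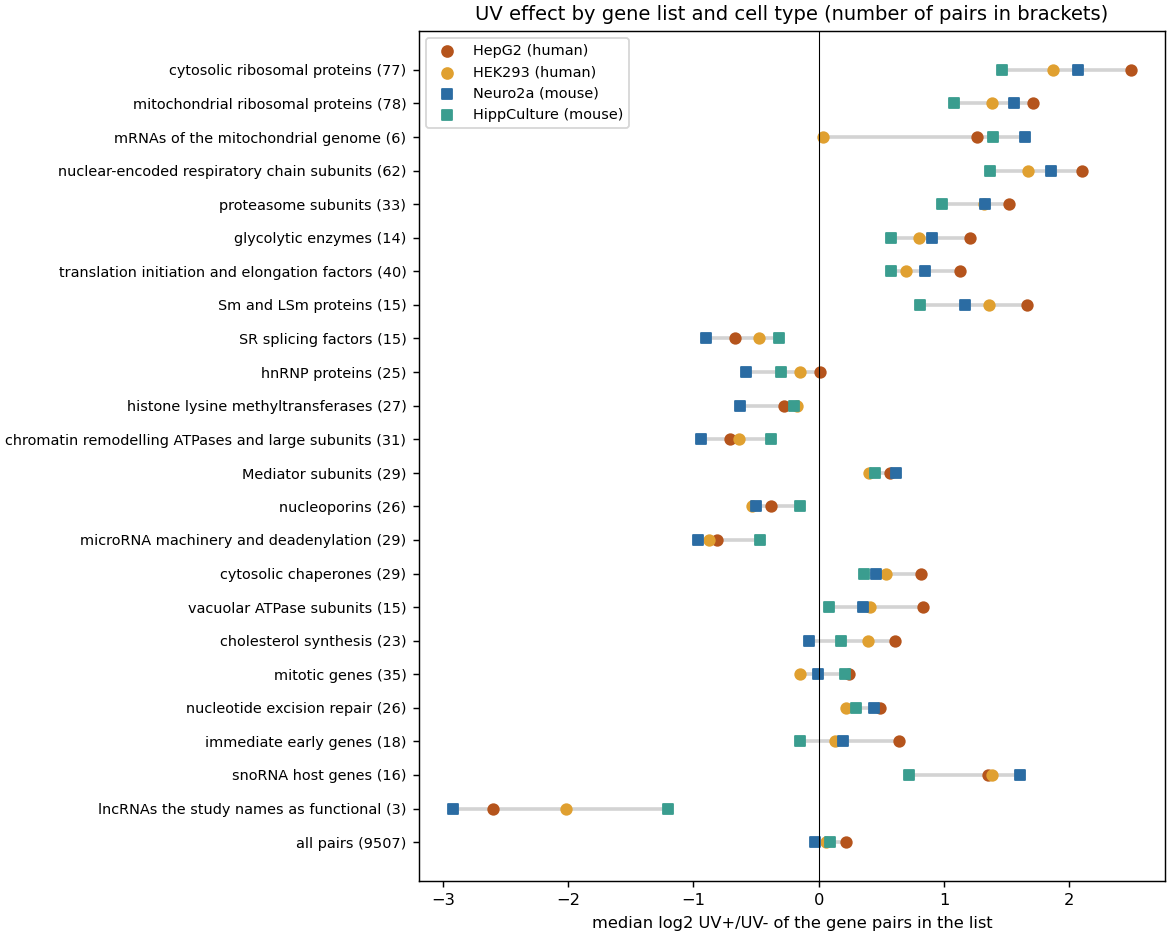
Each row is a gene list, with the number of pairs in brackets, and each point its median log2 UV+/UV- ratio in 1 cell type (circles human, squares mouse); the bottom row gives all 9507 pairs. Ribosomal, respiratory chain and proteasome lists lie above 0 in all 4 cell types, microRNA machinery and chromatin remodelling lists below 0 in all 4, and HEK293 stands apart in the mitochondrial mRNAs (0.03).

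Over all pairs, 32.4%, 27.6%, 34.4% and 25.7% fell in HepG2, HEK293, Neuro2a and HippCulture. Of 31 chromatin remodelling ATPases and large subunits, 25, 22, 28 and 17 fell, with medians of -0.71, -0.64, -0.94 and -0.38. Of 29 genes of microRNA machinery and deadenylation, 20, 20, 22 and 18 fell, with medians of -0.81, -0.88, -0.96 and -0.47. Their median species differences were 0.01 and -0.04. DICER1, which cuts microRNA precursors, had the lowest species difference of its list, -0.86 ± 0.192, and CHD1, a remodelling ATPase, the lowest of its own, -0.83 ± 0.102. Of 15 SR splicing factors, 9, 6, 12 and 11 fell and SRSF9 had the highest species difference, 1.00 ± 0.252.

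hnRNP genes encode abundant nuclear RNA-binding proteins. HepG2 had 7 of 25 that fell and 9 that rose, HEK293 8 and 1, Neuro2a 16 and 2, and HippCulture 15 and 2. Of all pairs, 32.4%, 27.6%, 34.4% and 25.7% fell and 48.7%, 31.4%, 35.9% and 34.7% rose, in the same order. No hnRNP median was above 0 once library sizes alone were used (-1.77 to -0.84). A total of 11 members had a higher log2 ratio in human at an adjusted p under 0.05 and 0 a lower one, beside 27.6% and 15.3% of all pairs. The median species difference was 0.30, and 0.14 with library sizes alone. HNRNPD, an AU-rich element binding protein, had the highest difference, 0.90 ± 0.18 (adjusted p = 0.000326), and HNRNPR the lowest, -0.06 ± 0.115 (adjusted p = 0.696).

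Of 23 cholesterol synthesis genes, 11 were higher in human and 0 lower, beside 27.6% and 15.3% of all pairs, and their medians were 0.61 and 0.39 in human and -0.08 and 0.18 in mouse cells, all of which lay below 0 with library sizes alone (-1.27 to -0.37). HSD17B7, which reduces a sterol ketone in that pathway (chr1:162790702-162812817 in hg38 and chr1:169949535-169969241 in mm10), had the highest species difference among pairs with at least 30 counts that differed in all between-species contrasts, 2.66 ± 0.196 (adjusted p = 4.06e-10). In HepG2 it rose from 8.91, 9.63 and 9.65 scaled CPM to 16.6, 16.4 and 16.6, and in HEK293 from 9.89, 6.63 and 6.97 to 17.4, 13.3 and 12.6. In Neuro2a it fell from 25.2, 20.1 and 19.9 to 4.47, 3.49 and 4.1, and in HippCulture from 76.1, 41.2 and 69.1 to 26.9, 28 and 26.1. No groups overlapped in any cell type. HMGCS1, an early enzyme of the pathway, had a difference of 0.74 ± 0.179. MVK, mevalonate kinase, had the lowest difference of the list, -0.13 ± 0.199 (adjusted p = 0.637).

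Of 29 Mediator subunits, 7 were lower and 6 higher in human, beside 15.3% and 27.6% of all pairs, with a median of -0.01. In the cell types 18, 12, 15 and 17 of them rose and 8, 7, 9 and 6 fell. Of all pairs, 48.7%, 31.4%, 35.9% and 34.7% rose and 32.4%, 27.6%, 34.4% and 25.7% fell, in the same order. The Mediator medians were 0.57, 0.40, 0.62 and 0.45, and lay between -0.74 and -0.09 with library sizes alone. MED28 had the lowest value, -2.02 ± 0.115 (adjusted p = 7.67e-12). In the human lines it went from 44.4, 44.5 and 44.3 to 33.6, 30.1 and 30.4 scaled CPM in HepG2 and from 67.6, 55.3 and 47.8 to 37.3, 30 and 31.3 in HEK293. In the mouse cells it went from 38.6, 35 and 32.6 to 126, 112 and 123 in Neuro2a and from 22.7, 27.1 and 25.5 to 47, 51.2 and 50.2 in HippCulture. Both human lines fell and both mouse cell types rose. MED19 had the highest difference, 1.68 ± 0.123, with log2 ratios of 1.49 and 0.97 in human and -0.71 in Neuro2a, while its HippCulture ratio of -0.21 did not pass the test (adjusted p = 0.134). NCAPD2, a condensin subunit among 35 mitotic genes, had -1.82 ± 0.131, rising by 2.13 and 1.49 in the mouse cells, with 0.13 and -0.15 in the human lines, neither past the test. In mouse, NCAPD2 shares 237 exon bases with Scarna10, a small RNA gene to which a mean of 1400 counts was assigned in nonirradiated Neuro2a, beside 2010 for NCAPD2.

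Other list extremes were NUP43 of the nuclear pore at -1.43 ± 0.194, the repair endonuclease subunit ERCC4 at -1.09 ± 0.124 and the damage sensor DDB2 at 1.15 ± 0.203. Nucleotide excision repair as a list had a median of 0.03, with 2 pairs lower and 9 higher of 26, beside 15.3% and 27.6% of all pairs. EIF4A1, the helicase of translation initiation, differed by 1.12 ± 0.12, the phosphofructokinases PFKM and PFKP by -0.67 ± 0.121 and 1.17 ± 0.127, and the methyltransferase SETD3 by 0.93 ± 0.0912. Immediate early genes had a median species difference of 0.40, with 8 of 18 higher and 2 lower in human, beside 27.6% and 15.3% of all pairs. Chaperones were higher in human in 7 of 29 pairs, near the 27.6% of all pairs, and vacuolar ATPase subunits in 7 of 15, with 4 of the latter lower. Median species differences were 0.22 for glycolytic enzymes, 0.17 for translation factors, 0.14 for histone lysine methyltransferases, -0.07 for nucleoporins, -0.13 for mitotic genes and 0.30 for snoRNA host genes.

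Pairs whose effect differed in all 4 contrasts between a human and a mouse cell type, in the same direction and at an adjusted p under 0.05, numbered 287 lower in human and 377 higher among the pairs with a mean of at least 30 counts. EXOSC6, a subunit of the RNA exosome (chr16:70246778-70251930 in hg38 and chr8:111056339-111057664 in mm10), was at 43.8, 45 and 44.4 scaled CPM in UV- and 27.7, 28.2 and 26.4 in UV+ HepG2. HEK293 went from 90.4, 69.6 and 58.9 to 30, 22.8 and 25.4. Neuro2a rose from 16.6, 14.4 and 12 to 58.2, 50.7 and 44.1, and HippCulture from 6.49, 6.82 and 6.86 to 15.2, 21.3 and 14.8. The species moved apart without overlap, and the species difference was -2.67 ± 0.16 (adjusted p = 1.38e-11). Its annotated 3′ UTR is 4304 bases in human and 472 in mouse, and the exons counted span 5153 and 1326 bases. All 1326 exon bases of the mouse gene also belong to exons of Aars, an aminoacyl-tRNA synthetase gene on the same strand with a mean of 4770 counts in nonirradiated Neuro2a, beside 182 for EXOSC6, so the mouse values of the 2 genes cannot be told apart.

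OTUD3, a deubiquitylase, had a like structure, with a 3′ UTR of 5199 bases in human and 359 in mouse. It fell from 13.1, 11.8 and 11.1 to 3.09, 3.06 and 2.99 scaled CPM in HepG2 and from 44.2, 41.9 and 43.2 to 13.6, 10.8 and 11.3 in HEK293. It rose from 13.1, 10.6 and 10.4 to 23.8, 19.1 and 19.3 in Neuro2a. HippCulture samples overlapped, at 7.26, 6.51 and 9.15 against 8.67, 9.67 and 11, and the HippCulture ratio of 0.36 ± 0.169 did not pass the test. The species difference was -2.53 ± 0.141. NUDT19, a coenzyme A hydrolase with 3′ UTRs of 1835 and 724 bases, fell in both human lines (-1.41 and -1.19) and rose in both mouse cell types (1.29 and 0.94).

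In the other direction, NKAP, a nuclear RNA-binding regulator (chrX:119920672-119943772 in hg38 and chrX:37126795-37150746 in mm10), rose from 9.35, 10.9 and 9.68 to 29.3, 27.8 and 25.7 scaled CPM in HepG2 and from 33, 32.8 and 33.3 to 58.8, 72.1 and 65.7 in HEK293. It fell from 19.4, 18.7 and 20.2 to 6.88, 9.04 and 7.59 in Neuro2a and from 18.3, 14.6 and 18.2 to 8.1, 9.06 and 11.4 in HippCulture. The species difference was 2.30 ± 0.129. TTC9C, a tetratricopeptide repeat protein with a 3′ UTR of 254 bases in human and 2669 in mouse, had log2 ratios of 1.23, 0.75, -1.01 and -0.89. CCDC167 rose by 2.53 and 2.05 in human and had 0.11 and 0.17, not past the test, in mouse. Its 3′ UTRs in the reference annotation are 248 and 6768 bases. The mouse one is longer than the 4896 exon bases over which its reads were counted. ATG10, an enzyme of autophagosome formation, had 2.56 and 1.88 in human and 0.33 and 0.11, not past the test, in mouse. Human ATG10 shares 374 exon bases with RPS23, a ribosomal protein gene on the opposite strand, and was at 147, 199 and 184 scaled CPM in UV- HepG2, while Neuro2a was at 6.45, 7.72 and 7.76. The mouse gene shares no exon bases, and reads of RPS23 counted for human ATG10 cannot be told apart from its own. CCDC167 likewise shares 2231 exon bases with Cmtr1 in mouse and none in human. TMEM18, MTCP1 and DNAH14 had differences of 1.94, 2.16 and 2.09.

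**Figure D4:**
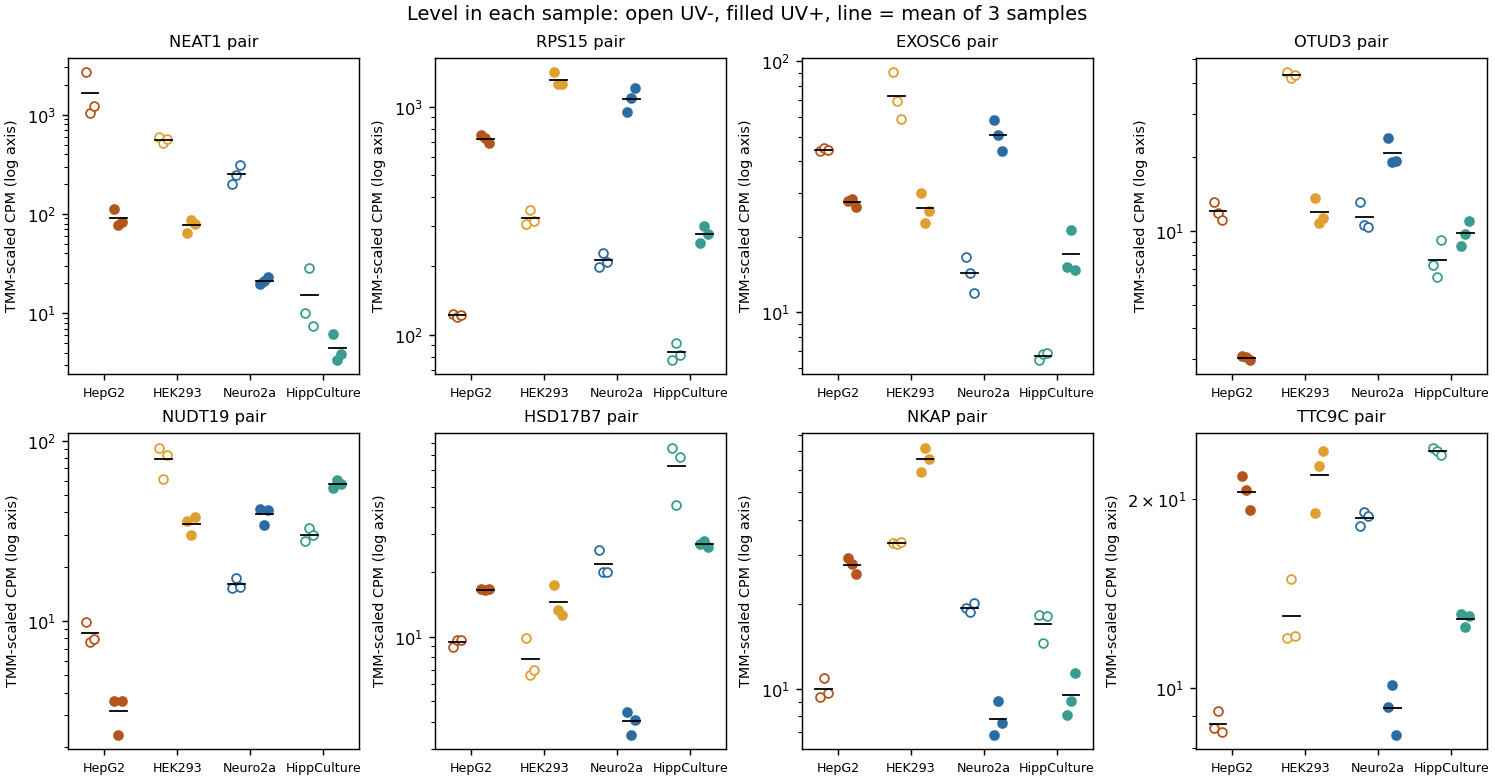
Each panel shows 1 gene pair, with the TMM-scaled CPM of every sample on a log axis, open circles UV-, filled circles UV+ and a line at the mean of 3 samples. NEAT1 falls and RPS15 rises in all 4 cell types, EXOSC6, OTUD3 and NUDT19 are lower after UV in human and higher in mouse, and HSD17B7, NKAP and TTC9C are the reverse; UV- and UV+ samples overlap only for OTUD3 in HippCulture.

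Some of the largest differences rested on few reads in the human lines. GPR22, an orphan receptor, held 412 reads in the 3 UV- and 2 in the 3 UV+ HepG2 libraries, a ratio of 0.0113 with a 95% exact counting interval of 0.00136 to 0.041, and 99 against 3 reads in HEK293. In HippCulture it was at 30.9, 24 and 30.7 against 23, 19.7 and 25 scaled CPM. LRRN3, a leucine-rich repeat protein of neurons, held 583 against 7 reads in HepG2 and 154 against 17 in HEK293, while in Neuro2a it was at 142, 168 and 163 against 124, 146 and 137 scaled CPM. Both genes lie wholly inside another gene in both species, GPR22 in COG5 and LRRN3 in IMMP2L, so reads of the enclosing gene could not be told apart. Of the 287 pairs lower in human, 4.53% lay inside another human gene, beside 4.54% of all pairs. TRIM17, a ubiquitin ligase, held 96 against 5 reads in HEK293 and rose in mouse, from 187, 138 and 128 to 632, 577 and 497 scaled CPM in Neuro2a. Mouse TRIM17 shares 708 exon bases with Hist3h2a, a histone gene on the same strand with a mean of 1900 counts in nonirradiated Neuro2a, beside 1910 for TRIM17. NRG4, YJEFN3, MTCP1, NKAP, HACD4, NUDT19, MED28, MED19, SRSF9, EIF4A1, ERCC4 and DDB2 also share exon bases with another gene in at least 1 species. So do MRPL42, MRPS2, NUP43, TMEM18, DNAH14, PFKM, PFKP, HNRNPD, HNRNPR, DICER1, CHD1, MVK, TCF4, TUG1, RPL28, RPL36, MT-ND1 and MT-CO1. Mouse NUP43 lies wholly inside Pcmt1. The part of shared reads in these values was not tested. NRG4, a ligand of ErbB receptors, and HACD4, of fatty acid elongation, had 15 and 8 UV+ reads in HepG2. Counting intervals cover counting error only, since reads are not independent molecules.

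The 25 lncRNA pairs split about evenly. Beside the shares of all pairs given above, HepG2 had 12 that fell and 10 that rose, HEK293 8 and 10, Neuro2a 11 and 12, and HippCulture 10 and 11. Of the 25, 7 fell in all 4 cell types and 7 rose in all 4, beside 14.4% and 21.1% of all pairs. The species test passed for 7 lower in human and 6 higher, beside 15.3% and 27.6% of all pairs, with SNHG5, a host gene of snoRNAs, at 1.40 ± 0.169 (adjusted p = 5.57e-07). SNHG5 rose from 25.3, 37.6 and 37.1 to 180, 167 and 168 scaled CPM in HepG2, from 85.2, 88.1 and 102 to 320, 264 and 318 in HEK293 and from 37.1, 34.5 and 37.1 to 77.4, 80.1 and 95.2 in Neuro2a. HippCulture overlapped, at 14.1, 21.7 and 13 against 20, 12.9 and 17.2. The host gene SNHG3 was the reverse, at -0.70 ± 0.141, with its largest ratio, 2.55, in Neuro2a. SNHG3 did not differ past the test between HepG2 or HEK293 and HippCulture (adjusted p = 0.055 and 0.982). SNHG6, SNHG8, ZFAS1 and DANCR rose in all 4 cell types.

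Among lncRNAs that fell, FTX, a gene of the X inactivation center, had a species difference of -0.88 ± 0.155. Its log2 ratio was lowest for HepG2 (-2.11) and highest for HippCulture (-0.43). The FTX ratios of HEK293 (-0.97) and Neuro2a (-0.89) lay between these and did not differ past the test (-0.08, adjusted p = 0.844). KCNQ1OT1 had a species difference of -1.04 ± 0.232. It did not differ past the test between Neuro2a and HepG2 or HEK293 (adjusted p = 0.103 and 0.735). SNHG14 and DLEU2 had their lowest ratios in Neuro2a, -2.79 and -1.92, and species differences of 0.79 ± 0.143 and 0.82 ± 0.171. Neither differed past the test between HepG2 or HEK293 and HippCulture (SNHG14 0.16 and -0.26, DLEU2 -0.17 and 0.54). The named lncRNA pairs share exon bases with another annotated gene in both species, so part of their reads may belong to that gene.

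Transcript features followed the UV effect in the same way in both species. Over the 9470 mRNA pairs, rho of the log2 ratio with transcript length was -0.659, -0.672, -0.638 and -0.607 in the order of cell types used above. It was -0.465, -0.453, -0.454 and -0.378 with coding length, -0.406, -0.452, -0.387 and -0.458 with the percent of U, and between -0.536 and -0.501 with 3′ UTR length over the 9241 pairs that have one in both species. The features are those of the transcript with the longest coding sequence in the reference annotation, which may not be the form these cells make. With the percent of GC, rho was 0.415, 0.447, 0.394 and 0.464. All points share the libraries, and the features are correlated with each other.

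Features that differ between the species were then set against the species difference. Coding length hardly differed, with rho of 0.995 between human and mouse, and its human to mouse ratio had rho of 0.002 with the species difference. The 3′ UTR length (rho 0.556 between species) and percent of U (rho 0.788) were less conserved, and their human to mouse differences had rho of -0.22 and -0.294. A human transcript richer in U, or with a longer 3′ UTR, than its mouse counterpart tended to have the lower log2 ratio in human. The human to mouse differences in percent GC and in transcript length had rho of 0.263 and -0.213. The part of U was not separated from that of GC, nor the part of the 3′ UTR from that of transcript length. Among 3989 pairs with 3′ UTR lengths within 1.25-fold of each other, rho with the U difference was -0.246. The 4 between-species contrasts gave -0.3 to -0.189 with the U difference, and the within-species contrasts, in which the sequences are the same, gave -0.095 for HepG2 minus HEK293 and -0.079 for Neuro2a minus HippCulture. In the 3989 pairs of like 3′ UTR length the between-species values were -0.279 to -0.107 and the within-species values -0.103 and -0.146, so the ranges overlapped there. The difference in expression level had rho of 0.076 with the species difference.

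In 5 bins of 1894 pairs, the median species difference stepped down from 0.35 where human had 3.15 percentage points less U than mouse (bin median) to -0.07 where it had 4.04 points more. In the first bin 42.8% of pairs were higher in human and 7.44% lower, and in the last 17.3% and 27.7%. For 3′ UTR length the medians ran from 0.27, where the human UTR was 0.328 times the mouse length, to -0.06, where it was 4.77 times. Coding length gave medians between 0.10 and 0.15 in all bins. The quartiles of neighboring bins overlapped.

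**Figure D5:**
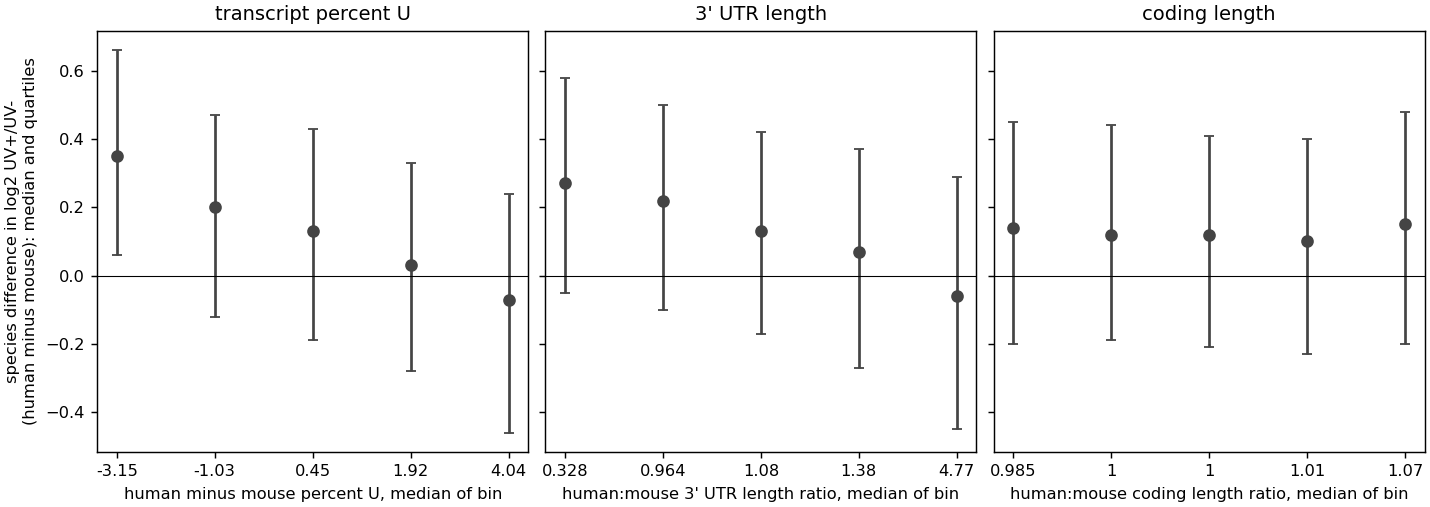
Points give the median species difference in log2 UV+/UV- (human minus mouse) and bars its quartiles in 5 bins of equal size, ordered by the human to mouse difference in percent U, 3′ UTR length or coding length, with the bin median on the x axis (not to scale). Medians step down from 0.35 to -0.07 over the U bins and from 0.27 to -0.06 over the 3′ UTR bins and stay between 0.10 and 0.15 over the coding length bins.

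The pairs that differed in every between-species contrast had the same tendency. The 287 pairs lower in human had a median 3′ UTR of 2920 bases in human and 1120 in mouse, and 82.9% had more U in human. The 377 pairs higher in human had medians of 802 and 1110 bases, and 33.4% had more U in human. Over all pairs the medians were 1180 and 990 bases, and 56.2% had more U in human. Of the 35 pairs with at least 30 counts that fell in human and rose in mouse, 80% had the longer 3′ UTR in human. The share was 29.7% for the 37 pairs of the reverse pattern with a 3′ UTR in both species. Over all pairs with one in both species it was 64.8%. By the annotated lengths, single pairs went against this tendency. MED28 had annotated 3′ UTRs of 339 bases in human and 3926 in mouse and the lower ratio in human, while NKAP had 4548 and 2781 bases and the higher ratio in human. These lengths are of 1 transcript per gene. Human MED28 shares 3520 exon bases, 32.1% of those counted, with FAM184B on the opposite strand. These alone outnumber the 339 bases, and their part in the MED28 values was not tested.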

How the data were processed

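The deposited files hold raw counts per gene. Per the labels and methods, the authors prepared Ribo-Zero libraries, aligned reads with TopHat2 2.1.1 to hg38 or mm10 and counted exons of GENCODE genes with featureCounts, letting a read count for every gene it overlaps and giving no strand option. The labels and methods name different library kits, so strandedness is not settled. Here 98.93% of human and 99.82% of mouse genes were matched to symbols. Each cell type was fitted over all genes with at least 0.5 mean CPM in nonirradiated samples (edgeR 4.0.16 quasi-likelihood test, TMM, Benjamini-Hochberg adjustment, threshold 0.05). The species difference and 6 contrasts between cell types came from 1 joint fit of the 9507 pairs in 24 samples, with the TMM factors of each cell type. SE is the log2 ratio divided by the root of F. "Scaled CPM" divides counts by TMM-adjusted totals.

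Named pairs were the lowest and highest mean ratios shared by all cell types, the lowest and highest differences past all between-species contrasts, opposite pairs, lncRNA extremes, and the extremes of each gene list. They had a mean of at least 30 counts in nonirradiated samples of each cell type, lncRNAs and members of the gene lists excepted. Other list members are named as examples, chosen after their values were seen. Members and lists were chosen with earlier results of these data known. The labels do not say that replicates are separate cultures, so p-values measure the spread between these samples. On simulated counts with 200 pairs changed by 1 on the log2 scale, the joint fit recovered 46.5% and 4.1% of its calls were false. The simulation gave all pairs 1 fixed spread that was not estimated from these data, so the recovered share need not hold for them. 3′ UTR and coding lengths and base content came from GENCODE 44 and M21. UTR percentages needed 100 bases. Same-numbered samples deviated together most in HEK293 (correlations 0.302 to 0.589). The correlations were lower in Neuro2a (0.083 to 0.228), HippCulture (0.048 to 0.126) and HepG2 (-0.01 to 0.036). DESeq2 1.42.0 was an alternative. Exon bases shared between genes were taken from the deposited exon coordinates. XIST and TSIX levels are not reported here.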

Additional observations from a re-analysis of the deposited data

Results flagged for a closer look

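Of the 4076 pairs whose UV effect differed between the species by the test of the difference itself, 22 that were named for their species difference are listed, with the species difference given as the mean human minus the mean mouse log2 ratio. Lower in human were GPR22 (-4.71), TRIM17 (-4.06), LRRN3 (-3.72), NRG4 (-3.12), HACD4 (-2.86), EXOSC6 (-2.67), YJEFN3 (-2.55), OTUD3 (-2.53) and NUDT19 (-2.42), and the lncRNAs KCNQ1OT1 (-1.04) and FTX (-0.88). Higher in human were HSD17B7 (2.66), NKAP (2.30), MTCP1 (2.16), CCDC167 (2.15), DNAH14 (2.09), ATG10 (2.00), TTC9C (1.94) and TMEM18 (1.94), and the lncRNAs SNHG5 (1.40), DLEU2 (0.82) and SNHG14 (0.79). Each lncRNA listed missed the test in at least 1 of the 4 contrasts between a human and a mouse cell type. SNHG14 and DLEU2 did not differ past the test between HippCulture and either human line, nor did KCNQ1OT1 between Neuro2a and either. FTX and SNHG5 did not differ past the test between HEK293 and Neuro2a. The values of GPR22, LRRN3, HACD4, NRG4 and TRIM17 rest on 17 or fewer summed reads in the UV+ samples of at least 1 human line, where the fitted ratio depends on the prior count, and they are no bounds. Groups of 3 samples were not searched for outlying samples. Mouse EXOSC6, mouse TRIM17 and human ATG10 share exon bases with Aars, Hist3h2a and RPS23. Other shares of exon bases were 46.9% for human MTCP1, 45.6% for mouse CCDC167, 38.1% for human NRG4, 35% for mouse NUDT19 and 34.1% for human YJEFN3. Of the pairs listed, only GPR22, LRRN3, OTUD3, HSD17B7 and TTC9C share no exon base with another gene in either species. GPR22 and LRRN3 lie inside another gene. The part of reads counted for more than 1 gene was not tested.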

How the results depend on the processing

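Within-species likeness stayed above between-species likeness in the reported analysis and all its alternatives (38 settings), but the coefficients changed with the counts required of a pair. Values are given in the order HepG2 with HEK293, HepG2 with Neuro2a, HepG2 with HippCulture, HEK293 with Neuro2a, HEK293 with HippCulture and Neuro2a with HippCulture. Spearman's rho was 0.94, 0.835, 0.807, 0.846, 0.823 and 0.927 for pairs with a mean of at least 100 counts, 0.925, 0.793, 0.759, 0.816, 0.784 and 0.908 with 10 counts in every sample, and 0.714, 0.543, 0.5, 0.591, 0.549 and 0.627 with at least 1 count in each cell type. Pearson's r was 0.854, 0.699, 0.675, 0.745, 0.738 and 0.826. Medians over single replicates were 0.719, 0.662, 0.734, 0.683 and 0.787 from the second to the last. A filter on the mean of all samples, added after the data were seen, gave 0.752 for HepG2 with Neuro2a and 0.779 for HEK293 with Neuro2a, and pairs sharing no exon base 0.778 for the latter. Leaving out 1 library gave 0.873 to 0.899, 0.73 to 0.742, 0.693 to 0.711, 0.753 to 0.768, 0.727 to 0.742 and 0.842 to 0.857.

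Scaling sets the directions. With library sizes alone, the log2 ratios had median shifts of -1.31 (HepG2), -0.76 (HEK293), -1.19 (Neuro2a) and -0.55 (HippCulture), and the shares that fell and rose became 76.2% and 10.7%, 57.4% and 9.86%, 77.2% and 6.84%, and 49.7% and 9.04%. The species median became -0.04, the share higher in human 14.1%, HEK293 against Neuro2a 41.9% and Neuro2a against HippCulture 56.2%. A total of 15 reported ratios changed sign: LRRN3 in HippCulture (-0.49), NRG4 (-0.66), OTUD3 (-0.32), CCDC167 (-1.08), ATG10 (-0.86) and MRPL42 (-0.02) in Neuro2a, HSD17B7 (-0.49), MTCP1 (-0.05), DNAH14 (-0.95), TTC9C (-0.07), SNHG3 (-0.15) and NCAPD2 (-1.18) in HepG2, DNAH14 (-0.17) and TTC9C (-0.01) in HEK293 and SNHG5 in HippCulture (-0.5). Of the 85 named pairs, 0 species differences past the test in either setting changed sign under the scaling, DESeq2, block and leave-one-out settings run for them.

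HepG2 against HEK293 was the least stable count: 12.2% with DESeq2 size factors, 9.95% with TMM over the pairs, 7.71% with 10 counts in every sample, 10.9% with at least 1 count in each cell type and 42.5% with the replicate block, 9.66% without HepG2 UV- replicate 1, 12.2% without HepG2 UV+ replicate 1, 11.7% without HEK293 UV+ replicate 2 and 12.5% without HEK293 UV+ replicate 3. The block gave 37.7% for HEK293 against HippCulture and 34.5% for Neuro2a against HippCulture, while the latter was 14.2% with at least 1 count in each cell type. The causes were not tested. Without 1 library, the ranges were 29.6% to 37.7% and 45.4% to 50.5% for pairs that fell and rose in HepG2, 22.2% to 27.6% and 25.6% to 32.8% in HEK293, 32.1% to 35.1% and 33.7% to 35.9% in Neuro2a and 21.6% to 25.7% and 30.6% to 36.6% in HippCulture. They were 40% to 46.2% for the species difference, 14% to 16.4% for lower and 24.9% to 30.8% for higher in human, and 9.66% to 27.2%, 36.4% to 45.5%, 38.8% to 48.3%, 21% to 27.6%, 19.3% to 28.4% and 15.3% to 25.8% for the 6 contrasts in the order above. The species share of variation was 6.42% and the HepG2 against HEK293 share 1.39% at 100 counts, and scaling by SD gave 2.79% for Neuro2a against HippCulture.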
